A study of Mus musculus with 8 samples.

Results

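The nuclear genes for subunits of the oxidative phosphorylation complexes were followed as a set in hepatocyte chromatin before and after partial hepatectomy (PHx). Members were chosen by gene symbol alone: Nduf followed by a, b, c, s or v and a digit, Sdha to Sdhd, Uqcr, Cox numbered 4 to 8 followed by a, b or c, and Atp5. This gave 82 of the 21911 protein-coding genes on chromosomes 1 to 19, X and Y, with 37 symbols for complex I, 4 for complex II, 8 for complex III, 16 for complex IV and 17 for complex V. The symbols are an imperfect guide to the enzymes. Ndufa4 and its paralog Ndufa4l2 are counted here with complex I by name, although the Ndufa4 protein is now placed in complex IV. Atp5s encodes a factor and not a structural subunit of ATP synthase. The pattern passes over Cox4i1, Cox4i2, Cyc1 and Ndufab1, which are described separately.

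Complexes I to IV of the inner mitochondrial membrane pass electrons from NADH and succinate to oxygen and, except for complex II, pump protons, and complex V uses the proton gradient to make ATP. Most subunits are encoded in the nucleus and the rest in mitochondrial DNA, so the 2 genomes must supply matching parts. The nuclear genes are expressed in nearly every cell, at high levels in mitochondria-rich cells such as hepatocytes, and their promoters are known as targets of the transcription factors NRF1, GABP (an ETS family factor), YY1 and ERR. A few complex IV subunits have paralogs whose use is restricted to heart and skeletal muscle or to testis.

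Open chromatin was profiled by bulk ATAC-Seq, which marks open DNA through insertion of sequencing adapters by the Tn5 transposase, in hepatocytes isolated by collagenase perfusion from C57BL/6 mice aged 10 to 12 weeks on a normal diet, which the methods of the study name as C57BL/6J males. The undamaged group (0 h) and the groups harvested 48, 72 and 96 h after PHx, an operation that takes out liver lobes and leaves the remainder to regrow, held 2 libraries each, 8 in all. No sham-operated group was analysed here, so surgery and regrowth cannot be told apart, and p-values measure the spread between these libraries. The study describes hepatocytes from several mice per time point and, for 0 and 48 h, biological replicates of this assay from separate preparations, more than the 2 libraries analysed here. For 72 and 96 h it does not say this of this assay, and the labels give no animal for any library. Mitochondrial DNA was not used.

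Each library is a list of peaks with no read counts, and the depth behind a peak is therefore unknown. The lists held 105206 to 154577 distinct intervals. Within each list, intervals were ranked by the peak caller's −log10 p, rank 1 being the strongest, and a gene was given the rank of the strongest interval lying within 1000 bp of any of its transcription start sites (TSS). A percentile of 100 stands for the strongest interval of a list. Of 12 hepatocyte marker genes, including Alb, Apob and Hnf4a, 12 had a promoter interval in both 0 h lists, 8 in 48 h replicate 1 and 11 or 12 in the other lists, although the promoter of Alb itself was listed in 3 of the 8. Of 6 Kupffer cell and leukocyte markers, 0 or 1 had one in any list, with 4 of the 6, Ptprc and Csf1r among them, in none. Endothelial markers numbered 2 to 4 of 6, stellate cell markers 3 to 5 of 6, cholangiocyte markers 2 to 4 of 5 and muscle markers 1 to 3 of 6. Stab2, Lyve1, Krt19 and Myh6 were in no list, and Kdr, Col1a1, Lrat, Reln, Epcam, Sox9 and the muscle marker Actc1 were in all 8. Epcam (96.9), Reln (95.7), Col1a1 (83.8) and Lrat (78.8) had higher median percentiles than every hepatocyte marker except Hnf4a (97.4). Sox9 stood at 69.9, Actc1 at 62.6 and Kdr at 41.1, and the median of hepatocyte markers in all 8 lists was 66.2. The counts thus do not give the share of a cell type. The name of the deposited file of 72 h replicate 2 carries another lane and no flow cell, which may mark a separate sequencing run; with 1 such library no value within a run could be had.

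The promoters of the subunit genes were open in nearly every library. An interval was found in all 8 lists for 76 of the 82 members (92.7%), compared with 60.3% of all protein-coding genes and 96.4% of the 83 cytosolic ribosomal protein genes, another set of housekeeping genes encoding parts of large complexes. Among the 50000 strongest intervals of every list, 69 members (84.1%) were still found in all 8 lists, compared with 49.4% of all genes and 69.9% of the ribosomal protein genes. The 6 exceptions were Ndufa4l2, counted with complex I by its name only, and Cox6a2, Cox7b, Cox7b2, Cox8b and Cox8c of complex IV. All members of complexes II, III and V were listed 8 times.

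Once open, the subunit promoters were of ordinary strength. Over genes listed in all 8 libraries, the median percentile was 91.0 for the 76 members and also 91.0 for the 13202 protein-coding genes, and it was 86.1 for the ribosomal protein genes. The middle of the member distribution ran from 82.3 to 95.8 between quartiles. By complex, the median was 90.5 for complex I, 83.0 for complex II, 95.8 for complex III, 89.5 for complex IV and 91.3 for complex V. Complex II, with 4 genes, was the lowest and complex III, with 8, the highest, although the genes of each complex spread over ranges that overlapped those of every other. Single lists did not all keep this order. In 0 h replicate 2 the median rank was 11007.5 for complex III and 8115 for complex V. In 48 h replicate 2 it was 33130 for complex IV and 14634 for complex II. The median interval was 928 bp wide in members and 869 bp in all genes, and the median fold enrichment over local background was 10.2 and 10.1.

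**Figure D1:**
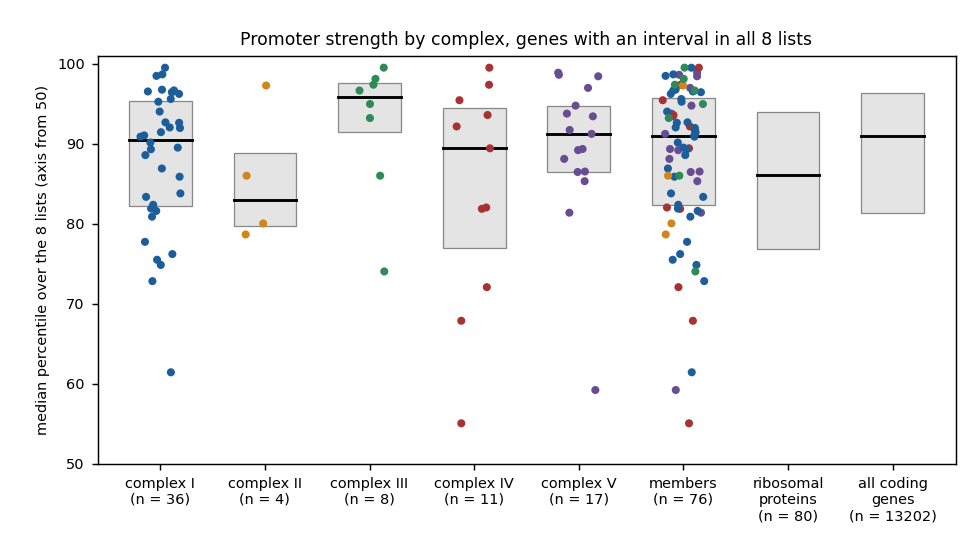
Median percentile over the 8 lists (vertical axis, from 50) of genes with an interval in every list, by complex, for all members, for ribosomal protein genes and for all protein-coding genes. Points are genes, grey boxes span the quartiles and black lines are medians, which lie at 95.8 for complex III, 83.0 for complex II and 91.0 for both the members and all genes.

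The accessible sites sat on the start sites. In 0 h replicate 1 the summit of the strongest interval lay at a median of −28 bp from the nearest annotated start of the gene, negative being upstream, and 47 of 76 summits fell within 100 bp and 60 within 200 bp. The widest distances were −830 bp at Uqcrh and 889 bp at Ndufa13. For 25 of the 78 members listed in 0 h replicate 1 (32.1%), the strongest interval was also the strongest interval of another protein-coding gene, compared with 16.8% of all listed genes. In each of the 25 cases a partner lay on the opposite strand. Several partners are themselves mitochondrial or translational genes. Sdhd shared its interval with Timm8b, an import chaperone of the intermembrane space, Ndufb5 with Mrpl47 of the mitochondrial ribosome, and Ndufa7 with Rps28 of the cytosolic ribosome. Atp5j, which encodes coupling factor 6 of ATP synthase, shared its interval with Gabpa, the gene for the DNA-binding subunit of GABP, so that both genes have the same values in what follows.

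**Figure D2:**
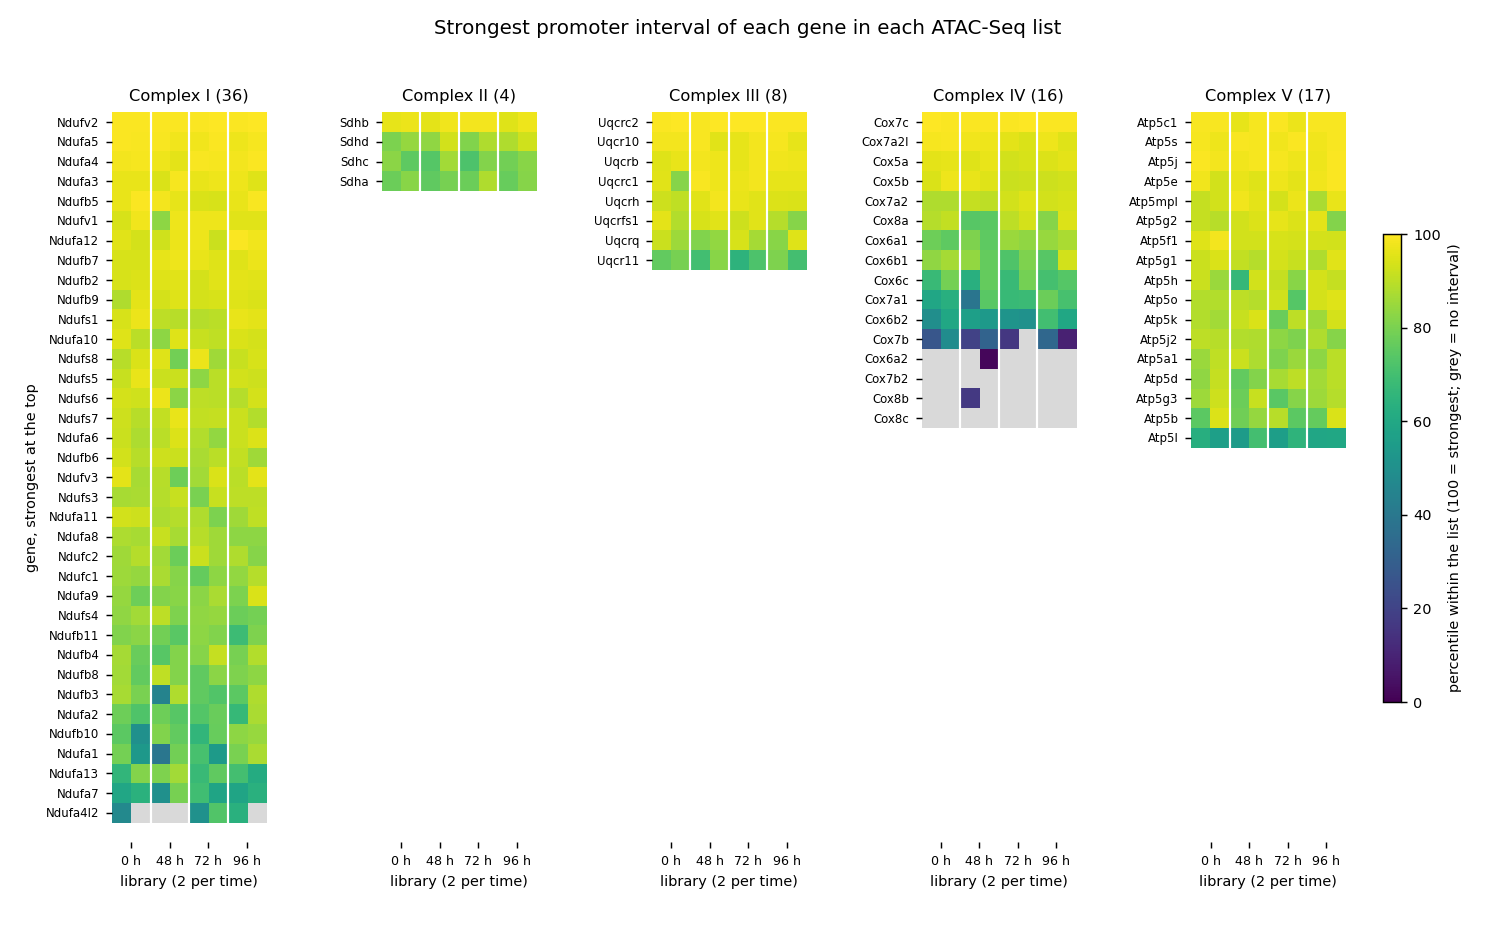
Percentile of the strongest promoter interval of the members (rows, by complex, strongest median rank at the top) in each of the 8 lists (columns, 2 per time point). Colour runs from 0 to 100, with 100 the strongest, and grey marks lists with no interval. Grey is confined to Ndufa4l2, counted with complex I by its name, and 5 complex IV genes.

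In complex I, the NADH dehydrogenase, the strongest promoter was that of Ndufv2, an iron-sulfur subunit of the NADH-oxidising module. Its interval at chr17:66101037-66102058 (mm10) covered the annotated start, with the summit 61 bp upstream. Ndufv2 ranked 908 and 703 at 0 h, then 759 and 626 (48 h), 594 and 289 (72 h) and 729 and 137 (96 h) (replicates 1 and 2 throughout), among the strongest 1% of intervals in every list. The weakest of the symbols counted with complex I was Ndufa4l2, the paralog of Ndufa4 that is induced by hypoxia. It had an interval at rank 67168 in 0 h replicate 1, at 69319 and 41887 in both 72 h lists and at 53130 in 96 h replicate 1, and none in the other 4 lists. Its summit lay 1312 bp into the gene and not at the start. Ndufa4 itself ranked between 735 and 5510.

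In complex II, succinate dehydrogenase, all 4 genes were open in every list but at different strengths. Sdhb, the iron-sulfur subunit, ranked 4653 and 3152 at 0 h, then 4760 and 3019 (48 h), 2395 and 2978 (72 h) and 6904 and 3073 (96 h). Sdha, the flavoprotein that oxidises succinate, ranked 28257 and 18530, 28781 and 28356, 31276 and 18178, and 33799 and 23321 at the same times. The membrane anchors Sdhc and Sdhd ranked between 19595 and 39342 and between 9087 and 26758. The Sdhb ranks did not overlap those of any of the other 3 genes, whereas those of Sdha, Sdhc and Sdhd overlapped one another.

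In complex III, the cytochrome bc1 complex, Uqcrc2, a core subunit, ranked 782 and 376 at 0 h, then 1203 and 508 (48 h), 516 and 400 (72 h) and 828 and 747 (96 h). Uqcr11, a small accessory subunit, was the weakest, at 30508 and 21500, 35703 and 24892, 49583 and 42994, and 28100 and 37875. Complex V, ATP synthase, was led by Atp5c1, the gene for the gamma subunit that turns inside the catalytic head, with a median rank of 1496. The weakest promoter of complex V was that of Atp5l, which encodes subunit g, with ranks from 41516 to 61914. Atp5l also varied least of all 76 members listed in every library, its ranks lying within 1.49-fold of one another.

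Complex IV, cytochrome c oxidase, held the member with the strongest median rank, 588, and 5 of the 6 members missing from at least 1 list. Cox7c, a ubiquitous subunit, ranked 467 and 470 at 0 h, then 597 and 579 (48 h), 855 and 422 (72 h) and 771 and 638 (96 h). The testis paralogs Cox7b2 and Cox8c had no interval in any list. Cox8b, the heart and skeletal muscle form of subunit 8, had 1 interval, at rank 98567 of 48 h replicate 1, with a fold enrichment of 2.78 and a summit 993 bp downstream of the start. Cox6a2, the muscle form of subunit 6a, had 1, at rank 137028 of 48 h replicate 2 with a fold enrichment of 2.24. These single weak intervals were not seen in the replicate library. Not every restricted form was closed. Cox7a1, the muscle form of subunit 7a, was listed in all 8 libraries at ranks from 32271 to 72163, and the testis form Cox6b2 at ranks from 42474 to 76429.

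The widely used paralogs ranked above the restricted ones in every library in which both could be compared. Cox6a1, the liver form, ranked 28096 and 26033 at 0 h, then 22920 and 34699 (48 h), 21267 and 25959 (72 h) and 22414 and 16186 (96 h). Cox7a2, the liver form of subunit 7a, ranked between 7530 and 14967, with no overlap with Cox7a1. Cox7a2l, a related protein that joins complexes III and IV into supercomplexes, ranked between 1041 and 8518, which overlapped Cox7a2. Cox6b1 ranked between 8566 and 38843, above Cox6b2 throughout. Cox7b, which is X-linked and ubiquitous, was an exception among widely used forms: it had weak intervals at ranks from 53961 to 117667 in 7 lists and none in 72 h replicate 2, with fold enrichments of 2.66 to 4.47. The remaining single forms were Cox5a, at ranks from 4001 to 9619, Cox5b, at 2789 to 11844, and Cox6c, at 21794 to 45170.

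The 3 genes for the identical c subunit of the ATP synthase rotor, which differ in the part that targets the protein to mitochondria, were all open in every list. Atp5g1 ranked 10087 and 6074 at 0 h, then 10845 and 15651 (48 h), 9252 and 13243 (72 h) and 17440 and 5497 (96 h). Atp5g2 ranked 11059 and 11327, then 8219 and 7552, 5156 and 8437, and 6133 and 23821. Atp5g3 ranked 18730 and 8115, then 26287 and 11879, 35980 and 28248, and 21046 and 14027. At 0 h Atp5g3 overlapped both others and Atp5g1 was above Atp5g2 without overlap, while at 72 h Atp5g3 was below both others without overlap: on all 4 scales Atp5g2 was then above and Atp5g3 below its own 0 h libraries.

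**Figure D3:**
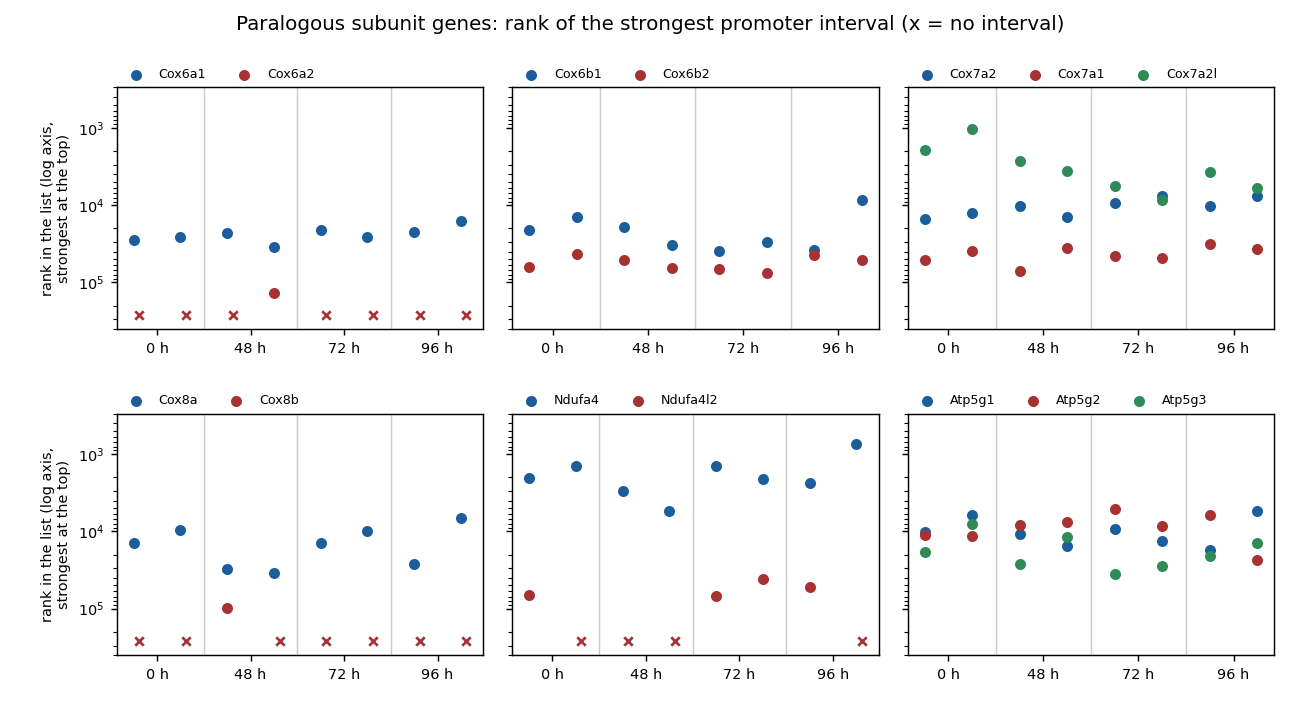
Rank of the strongest promoter interval (vertical log axis, strongest at the top) of paralogous subunit genes in the 8 lists, ordered by time after PHx with 2 libraries per time. Points are libraries and crosses mark lists with no interval; Cox6a2 and Cox8b each have 1 point, while all 3 Atp5g genes have points in every list and Atp5g3 lies below the others at 72 h.

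The paralogs differed in promoter sequence as well. The 160 bases upstream of the start of Cox8a, open in every list, and of Cox8b are shown with those of Ndufv2, the strongest complex I promoter. The only interval of Cox8b, in 1 list, lay downstream of the start and outside these bases. Sequences are from RefSeq on GRCm38.p6, the assembly also called mm10, written 5′ to 3′ on the strand of the gene, all 3 on the minus strand, with CG dinucleotides in capitals. They lie at chr19:7217617-7217776 for Cox8a, chr7:140900447-140900606 for Cox8b and chr17:66101560-66101719 for Ndufv2. The stretch held 11 CG in Cox8a, 1 in Cox8b and 23 in Ndufv2, at a GC content of 55%, 53.8% and 75.6%.
Cox8a: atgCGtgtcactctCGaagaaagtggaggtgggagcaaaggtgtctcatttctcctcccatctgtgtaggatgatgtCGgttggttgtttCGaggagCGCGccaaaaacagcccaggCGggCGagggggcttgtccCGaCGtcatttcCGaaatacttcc
Cox8b: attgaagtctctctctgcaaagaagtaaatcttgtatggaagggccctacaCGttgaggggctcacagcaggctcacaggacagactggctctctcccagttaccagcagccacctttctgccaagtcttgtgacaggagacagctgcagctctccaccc
Ndufv2: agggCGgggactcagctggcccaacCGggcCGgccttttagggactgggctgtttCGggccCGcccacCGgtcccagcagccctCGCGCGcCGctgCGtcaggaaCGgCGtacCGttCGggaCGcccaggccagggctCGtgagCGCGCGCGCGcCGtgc
In this stretch the 2 subunit 8 genes had nearly the same GC content and differed in CG dinucleotides. Over windows from 250 bp before to 50 bp after the start, the ratio of observed to expected CG was 0.84 for Cox8a and 0.11 for Cox8b, at a GC content of 56% and 48.3%. The ratio was 0.33 for Cox7a1 and 0.83 for Cox7a2. It was 0.37 for the ubiquitous Cox7b and 0.56 for the testis form Cox7b2, which had no interval, so a higher ratio did not go with the widely used form in every family. The median was 0.79 over the 68 members found in the promoter table and 0.61 over 16857 protein-coding genes, or 0.78 over the 10462 of those listed in all 8 libraries.

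The same windows were searched on both strands for letters associated with factors of nuclear respiratory genes. The NRF1 letters GCGCATGCG were found in 8 of 68 members (11.8%), compared with 2.49% of all promoters and 3.65% of those listed in all 8 libraries. The ETS letters CCGGAAG, which GABP can bind, were found in 16 (23.5%), compared with 12.4% and 18%, but in the 200 bp around the summit in 15.2% of members and 13.7% of genes. The ERR letters TCAAGGTCA were found in 2 (2.94%, Atp5g3 and Sdhd), compared with 0.308% and 0.220% (1.52% of members and 0.0787% of genes around the summit). The SP1 letters GGGCGG went the other way, in 39.7% of members against 49.0% of all promoters and 67.0% of those listed in all 8. The CRE letters TGACGTCA were found in 5.88% of members and 2.43% of all promoters (3.03% and 1.48% around the summit), the E-box CACGTG in 8.82% and 8.08% (3.03% and 4.40% around the summit), and the NF-Y letters CCAAT in 44.1% and 38.8% (27.3% and 25.3% around the summit). Among promoters listed in all 8 libraries, the CRE, E-box and NF-Y shares were 3.26%, 10.1% and 38.1%. In ribosomal protein genes the share was 3.17% for NRF1 and 38.1% for ETS. These are matches of letters, not measured binding.

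The NRF1 matches are shown because they recur in promoters of genes from 4 of the 5 complexes. In 7 of the 8 members the match began upstream, between base −241 and base −5, and in Uqcrc1 it began at base 31 downstream, with base 1 the first transcribed. The matched letters are in capitals between 10 flanking bases on each side, on the strand of the gene. In Ndufa8 and Uqcr11 the match was on the opposite strand only, so the capitals show its reverse complement, and in the other 5 shown, matches on both strands overlapped by all but 1 base. They lie at chr15:102671071-102671099 (Atp5g2), chr5:108434431-108434459 (Atp5k), chr5:115349102-115349130 (Cox6a1), chr17:56717692-56717720 (Ndufa11), chr2:36049329-36049357 (Ndufa8), chr10:80406808-80406836 (Uqcr11) and chr9:108936668-108936696 (Uqcrc1), with Ndufa11 and Uqcrc1 on the plus strand and the others on the minus strand.
Atp5g2: ggctccggccGCGCATGCGcagagccttc
Atp5k: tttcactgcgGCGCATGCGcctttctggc
Cox6a1: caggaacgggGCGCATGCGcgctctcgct
Ndufa11: cctgcactgcGCGCATGCGcgcacgcctt
Ndufa8: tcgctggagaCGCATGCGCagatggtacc
Uqcr11: atcgccttcaCGCATGCGCtatacgtctg
Uqcrc1: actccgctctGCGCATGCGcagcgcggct
The eighth, Atp5l, had its match at the far edge of the window. In the 200 bp around the summit in 0 h replicate 1, the NRF1 letters were found in 3 of 66 members (4.55%) and in 1.77% of 11442 genes.

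The YY1 letters AAGATGGC were found in 10 members (14.7%), compared with 3.26% of all promoters, 4.55% of those listed in all 8 libraries and 7.94% of ribosomal protein genes. In 8 of the 10 they began 23 to 39 bases into the transcript, on the sense strand, and overlapped the annotated start codon, the ATG inside the letters. Over all genes with the letters, 166 of 549 (30.2%) overlapped a start codon. Counted apart, start codon matches were found in 11.8% of members and 0.985% of all promoters, and matches elsewhere in 2.94% and 2.27%. The 8 were Ndufa3, Ndufa9, Ndufb8, Ndufc1, Ndufs4, Ndufs6 and Ndufs7 of complex I and Atp5j2 of complex V. For 5 of them the bases are shown in the same layout, each 28 bases long, at chr7:3617385-3617412 (Ndufa3, plus strand), chr6:126849098-126849125 (Ndufa9, minus), chr3:51408916-51408943 (Ndufc1, minus), chr10:80249463-80249490 (Ndufs7, plus) and chr5:145191501-145191528 (Atp5j2, minus).
Ndufa3: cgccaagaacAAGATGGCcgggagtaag
Ndufa9: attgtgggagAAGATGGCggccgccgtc
Ndufc1: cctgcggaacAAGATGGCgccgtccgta
Ndufs7: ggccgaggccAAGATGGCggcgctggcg
Atp5j2: ccaggacttcAAGATGGCgtcactcggt
In the remaining 2, Atp5f1 and Atp5j, the letters lay at the start site and at base −88. Around the summit the YY1 letters were found in 13.6% of members and 2.89% of genes.

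**Figure D4:**
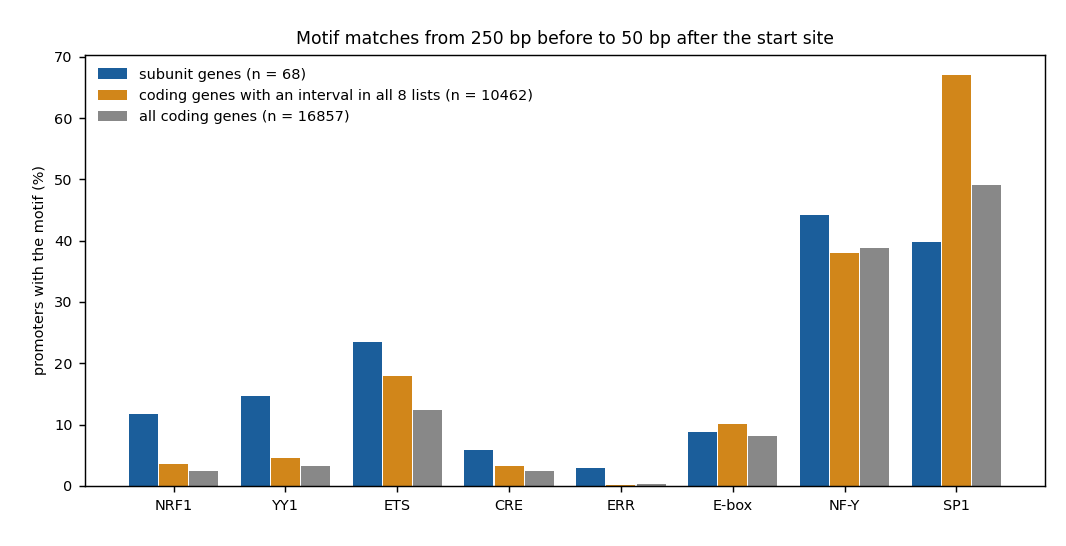
Share of promoters (percent, vertical axis) holding each set of letters on either strand from 250 bp before to 50 bp after the start, for 68 subunit genes, 10462 protein-coding genes listed in all 8 libraries and 16857 protein-coding genes. NRF1 and YY1 stand at 11.8% and 14.7% in subunit genes against 2.49% and 3.26% in all genes, and SP1 at 39.7% against 49.0%.

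The time points were then compared to ask whether the subunit promoters changed after PHx. Fitted by limma on −log2 rank with all 8 libraries, 0 of the 76 members tested passed an adjusted p of 0.05 at any time. At 48 h the smallest adjusted p among members was 0.202, at 72 h 0.320, at 96 h 0.884, and for the mean of the 3 times against 0 h 0.291. Few promoters of any kind passed: of 13202 tested, 0.0454% at 48 h, 0% at 72 h, 0.00757% at 96 h and 0.0227% for the 3 times together. At an unadjusted p under 0.05, 4 members passed at 48 h against a background of 12.5% of all genes, 9 at 72 h against 9.83%, 5 at 96 h against 5.31%, and 7 for the 3 times together against 10.6%. With 2 libraries against 2, an exact permutation test of a single gene could not give a two-sided p below 0.333. The 3 comparisons share the 0 h libraries and their chance deviations.

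The fitted differences were small for the set as a whole. The median log2 difference of the members, where positive means stronger after PHx, was −0.18 at 48 h, −0.36 at 72 h and −0.20 at 96 h, and that of all genes was −0.20, −0.24 and −0.10. Lists differ in length, and when ranks were divided by the number of intervals in the list the members' medians became −0.03, −0.01 and 0.03, and those of all genes −0.05, 0.11 and 0.14. The sign of the set's shift at 96 h thus depended on the scale, and it depended on single libraries too. Leaving out 0 h replicate 2 gave the members a median of 0.01 at both 48 and 96 h. The 96 h median was 0.11 when 96 h replicate 1 was left out and −0.45 when replicate 2 was. At 48 h, 25 of 76 members (32.9%) and 39.9% of all genes had a difference above 0, and at 72 h 14 (18.4%) and 36.6%. By complex at 48 h these were 13 of 36 genes in complex I, 2 of 4 in II, 4 of 8 in III, 1 of 11 in IV and 5 of 17 in V, and at 72 h 4, 1, 4, 2 and 3 of the same genes. The 96 h counts were 27 of 76 members (35.5%), with 44% of all genes, and 13, 1, 3, 4 and 6 by complex. The counts moved with the scale: with ranks divided by list length, 37, 37 and 40 of the 76 members were above 0 at 48, 72 and 96 h, among promoters alone 37, 28 and 33, and by fold enrichment 34, 33 and 40. The 48 h medians of complexes I to V were −0.13, −0.01, 0.03, −0.22 and −0.33. Their 72 h medians were −0.37, −0.10, 0.10, −0.36 and −0.61, and their 96 h medians −0.16, −0.20, −0.17, −0.19 and −0.21.

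**Figure D5:**
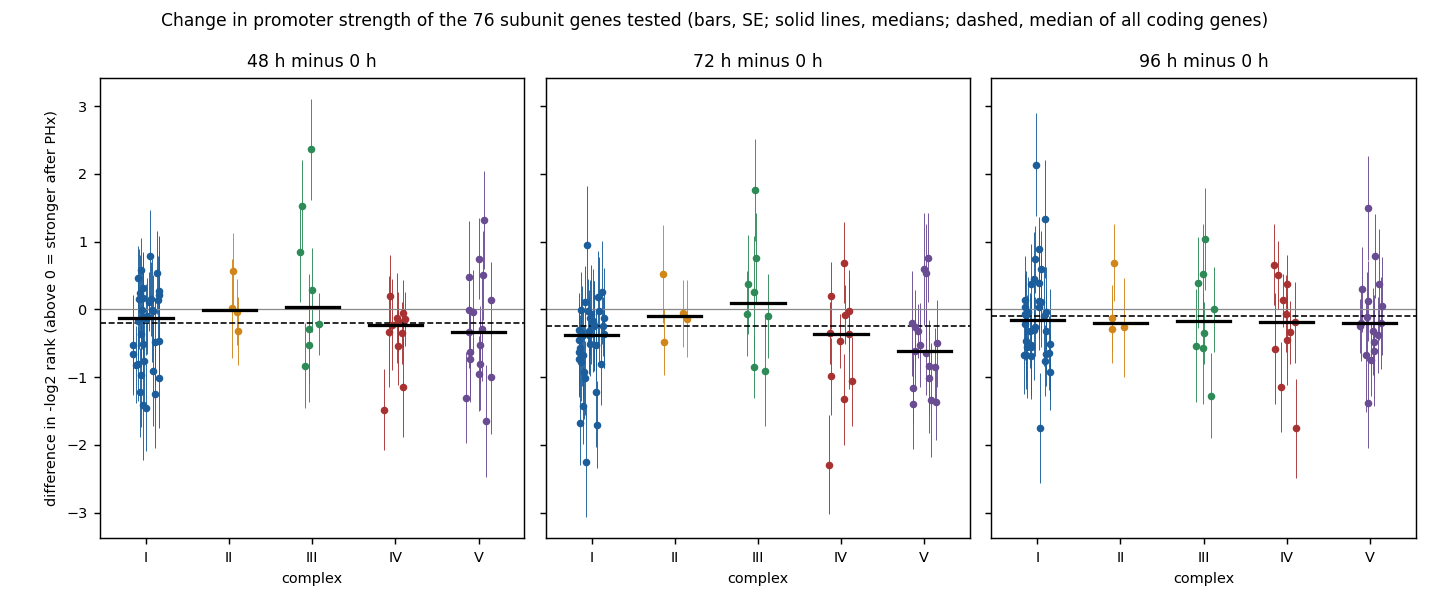
Difference in −log2 rank from 0 h (vertical axis, above 0 stronger after PHx) at 48, 72 and 96 h for the 76 members listed in every library, by complex. Points are genes with bars of 1 standard error from limma, solid lines are medians and the dashed line is the median of all genes; the members extend from −2.29 (Cox7a2l, 72 h) to 2.36 (Uqcrc1, 48 h).

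Groups that did not overlap were counted as a second description, over the 80 members with an interval in at least 1 list. At 48 h, 8 members had both ranks above those of both 0 h libraries and 19 had both below, or 10% and 23.8%, against a background of 15.4% and 24.9% of 16412 genes. At 72 h, 7 ranked higher and 30 lower, or 8.75% and 37.5%, against 15.6% and 27.2%. At 96 h, 9 ranked higher and 18 lower, or 11.25% and 22.5%, against 13.4% and 17.2%. The members' shares were near or below the background except among the lower ranked genes at 72 and 96 h. The split depended on the scale. Divided by list length, the counts became 14 higher and 14 lower at 48 h (background 18.3% and 19.5%), 11 and 16 at 72 h (25.5% and 14.5%) and 18 and 12 at 96 h (20.4% and 10.7%). Ranked by fold enrichment they were 16 and 8 (18.4% and 17.6%), 10 and 22 (15.3% and 23%) and 11 and 11 (14% and 13%) at these times. Ranked among promoters alone they were 15 and 12 (19.4% and 19.4%), 7 and 22 (19.8% and 19.9%), and 15 and 16 (15.4% and 15.1%).

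All 8 that ranked higher at 48 h (Atp5g2, Atp5k, Atp5mpl, Ndufb7, Ndufs3, Uqcrb, Uqcrc1 and Uqcrh) and all 7 at 72 h (Atp5g2, Cox6a1, Cox7a2, Ndufv2, Sdhb, Uqcrc1 and Uqcrh) did so on the 3 other scales too, as did 6 of 9 (66.7%) at 96 h. Over all genes that ranked higher, 76.4%, 70.6% and 70.4% did at these times. Of the members that ranked lower, 7 of 19 (36.8%), 16 of 30 (53.3%) and 6 of 18 (33.3%) did, against 50.2%, 43.6% and 38.6% over all genes.

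The widest upward gaps at 48 and 72 h were in complex III. Uqcrc1, a core subunit of the complex, at chr9:108936331-108937282 with its summit 60 bp upstream of the start, ranked 5853 and 19290 at 0 h, then 1191 and 3591 (48 h), 4050 and 2435 (72 h) and 5548 and 4816 (96 h). All 6 PHx ranks were stronger than both 0 h ranks, but the 0 h libraries lay further from each other than 0 h replicate 1 lay from 48 h replicate 2. The fold enrichments, 17.2 and 10.5 at 0 h and 15.1 to 18.6 after PHx, overlapped. By limma the difference was 2.36 (SE 0.75) at 48 h with an adjusted p of 0.202, and 1.76 at 72 h with 0.451.

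Uqcrh, the hinge protein that helps cytochrome c dock on the complex, ranked 9694 and 9981 at 0 h, then 5190 and 2238 (48 h), 4814 and 7064 (72 h) and 7894 and 7123 (96 h). The 6 PHx libraries all ranked stronger than both 0 h libraries, which lay close together. Its strongest interval was 1756 bp wide with its summit 830 bp upstream, and was shared with Lrrc41. The difference at 48 h was 1.53 (SE 0.67, limma adjusted p 0.336). Uqcrc1 and Uqcrh were the only 2 of 80 members whose 6 PHx libraries all ranked higher than both 0 h libraries (background 3.95%).

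In the other direction, 6 members ranked lower in all 6 PHx libraries than in both 0 h libraries: Atp5f1, Atp5j2, Cox7a2l, Cox7b, Ndufa11 and Ndufa5, or 7.5% against a background of 6.7%. Ranked by fold enrichment, neither these 6 nor Uqcrc1 and Uqcrh kept all 6 PHx libraries apart from 0 h. Cox7b and Ndufa5 also overlapped when ranks were divided by list length or taken among promoters alone, and Atp5j2 among promoters alone. Atp5f1, Cox7a2l, Ndufa11, Uqcrc1 and Uqcrh stayed apart on both of those scales. Cox7a2l showed the widest gap at 72 h. At chr17:83513750-83514770, it ranked 1931 and 1041 at 0 h, then 2713 and 3653 (48 h), 5643 and 8518 (72 h) and 3758 and 6092 (96 h). The limma difference was −2.29 (SE 0.73) at 72 h, with an adjusted p of 0.320, and −1.73 over the 3 times, with an adjusted p of 0.291.

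Ndufa5 and Ndufa11, accessory subunits of complex I, and Atp5f1, the b subunit in the stator stalk of ATP synthase, followed. Ndufa5 ranked 662 and 876 at 0 h, then 1335 and 3052 (48 h), 3084 and 1014 (72 h) and 3484 and 1896 (96 h). Ndufa11 ranked 8719 and 8126 at 0 h and from 12301 to 30618 after PHx. Atp5f1 ranked 6328 and 1985 at 0 h, so its 0 h libraries differed more than its PHx libraries, which lay between 7855 and 10184. Atp5j2, subunit f of ATP synthase, ranked 12685 and 11140 at 0 h and from 13410 to 29629 after PHx, and Cox7b ranked 92995 and 53961 at 0 h and from 94840 to 117667 where listed after PHx. The limma adjusted p of Ndufa5, Ndufa11 and Atp5f1 was between 0.357 and 0.437 over the 3 times together.

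Other differences were not seen at every time point. Cox8a, the form of subunit 8 used in liver, ranked 14072 and 9739 at 0 h, then 30422 and 35030 (48 h), 14030 and 10030 (72 h) and 26392 and 6742 (96 h). Only the 48 h libraries were apart from 0 h, by −1.48 (SE 0.60, limma adjusted p 0.299), and the difference between 72 and 48 h was 1.46 with an adjusted p of 0.770. Atp5c1 ranked 1074 and 891 at 0 h, then 4471 and 2101 (48 h), 898 and 4320 (72 h) and 1604 and 1388 (96 h), so it was below 0 h without overlap at 48 and 96 h and overlapped at 72 h (limma adjusted p 0.404, 0.977 and 0.693 at 48, 96 and 72 h). Ndufs1, which carries iron-sulfur clusters of complex I, ranked 7645 and 3050 at 0 h, then 11619 and 15014 (48 h), 15604 and 15820 (72 h) and 4799 and 5417 (96 h). Its 96 h libraries lay between the 0 h libraries, and the limma adjusted p was 0.338 at 48 h and 0.390 at 72 h.

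Beside the 48 h values stands a difference in the libraries themselves. In 48 h replicate 1, 4 fewer hepatocyte marker promoters were listed than at 0 h, and 9 of the 12 hepatocyte markers ranked lower at 48 h than at 0 h without overlap, 8 at 72 h and 5 at 96 h, where the share over all genes was 24.9%, 27.2% and 17.2%. Of the stellate cell markers, 3 of 6 ranked higher at 48 h, 0 at 72 h and 1 at 96 h, where the share over all genes was 15.4%, 15.6% and 13.4%. The part of these shifts in the values of the subunit genes was not tested, and in bulk libraries fewer cells of a type and less open chromatin per cell cannot be told apart.

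At 96 h the widest gaps upward were those of Ndufa12, Ndufb10 and Atp5o. Ndufa12, an accessory subunit of complex I, ranked 5551 and 6600 at 0 h, then 8598 and 4352 (48 h), 3638 and 12672 (72 h) and 744 and 2546 (96 h). It varied most of all 76 members, with ranks 17-fold apart over the 8 lists. The limma difference at 96 h was 2.14 (SE 0.76, adjusted p 0.884). Ndufb10, of the membrane arm, ranked 31930 and 52524 at 0 h and 24434 and 19788 at 96 h. Atp5o, the subunit that ties the stator stalk to the catalytic head, ranked 14620 and 11952 at 0 h and 9238 and 6369 at 96 h, but 10324 and 40925 at 72 h, so that replicates of 1 time point could lie further apart than time points. At 72 h the third upward gap was that of Cox7a2, with ranks of 14967 and 12664 at 0 h and 9443 and 7703 at 72 h (limma adjusted p 0.715).

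The spread between libraries set the scale for all of these. The ranks of a member differed by a median of 3.65-fold between its strongest and weakest library, from 1.49-fold to 17-fold, and those of all genes by 3.48-fold. The median residual standard deviation of the fit was 0.57 on the log2 scale for members and 0.56 for all genes.

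Other genes of the pathway were open as well. Of 6 subunits and partners that the symbol pattern passes over, 5 had an interval in all 8 lists: Ndufab1, the acyl carrier protein of complex I, ranked between 132 and 674, Cyc1, cytochrome c1 of complex III, between 1243 and 9773, and Cox4i1, the main form of subunit 4, between 857 and 22287. Cycs, cytochrome c, ranked between 4210 and 15238 and Atpif1, the ATPase inhibitor, between 6415 and 36644. The sixth, Cox4i2, the form of subunit 4 induced by hypoxia, was listed in 48 h replicate 1 and 72 h replicate 2 only. Of 45 assembly factors, 44 were listed in every library, the exception being Sdhaf1, and of 16 genes grouped as regulators, 16. Most regulators ranked high, with a median percentile of 97.6. Gabpb1, Ppargc1a and Twnk were weaker, with median percentiles of 85.8, 76.1 and 74.0. Nrf1 ranked between 797 and 2879, Yy1 between 421 and 1523 and Tfam, which packages mitochondrial DNA and helps to start its transcription, between 2690 and 16748. By limma, 0 of 5 passed-over subunits, 0 of 44 assembly factors and 0 of 16 regulators were called at any time, with smallest adjusted p-values of 0.155, 0.311 and 0.184.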

How the data were processed

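Bulk ATAC-Seq was done on 8 hepatocyte libraries, 2 at each of 4 time points, grouped by the sample labels. Per the study's methods the authors used the ENCODE pipeline (trimming, alignment to mm10 with Bowtie2, removal of PCR duplicates, peak calling by MACS2). Versions are not given in the sources used here. The deposited lists give, for each peak, a display score (not used), a summit offset and, from the authors' peak caller, −log10 values of p and q and the fold enrichment. They hold no counts, so depth is unknown and the study's count model (TCseq) could not be run.

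Lines of 1 interval were collapsed to the highest −log10 p and ranked within each list, which does not need the depth but makes a rank depend on all other intervals. Genes came from GENCODE M21 basic annotation (83 gene IDs for 82 symbols; 12 pseudogene or noncoding symbols were left out). Genes listed in all 8 libraries were fitted with limma 3.58.1 in R 4.3.3 (group means, variance trend, two-sided, Benjamini-Hochberg over all genes tested), a step checked on simulated data; counts used Python 3.11.15 and pandas 2.3.3. A gene absent from a list ranked last in counts of groups that do not overlap. Promoter sequences were RefSeq entries on GRCm38.p6 for 68 of 82 members, 2 of them under another symbol; among those missing from the table were Atp5a1, Atp5mpl, Cox6a2, Cox6c, Cox8c, Ndufa2, Ndufa4l2, Ndufb9, Ndufs1, Sdhc, Uqcrb, Uqcrc2 and Uqcrq. A single member is counted in the totals but not reported here by name or in the heat map. Genes named with values were the strongest and weakest of each complex, all Sdh genes, paralog families, members missing from a list, and the 3 widest gaps per time and direction; other names were chosen after their values were seen. The members, lists and tests were chosen with earlier results of these data known. Alternatives covered the scale, the promoter window, filters, the replicate block and leaving out each library. Further libraries were not analysed here.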

Additional observations from a re-analysis of the deposited data

Results flagged for a closer look

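Atp5k, which encodes subunit e of ATP synthase, was singled out because every library moved in opposite directions at 2 time points relative to 0 h. It ranked 14555 and 14655 at 0 h, then 9763 and 7727 (48 h) and 31823 and 15576 (72 h), so both 48 h libraries were stronger and both 72 h libraries weaker than both 0 h libraries. The 96 h ranks, 21470 and 8398, lay on either side of the 0 h ranks. The difference itself, 72 h minus 48 h, was −1.36 on the log2 scale (SE 0.59) and did not pass by limma (adjusted p 0.785). The 48 h gap was kept when ranks were divided by list length, taken among promoters alone or taken by fold enrichment. The 72 h gap was kept by fold enrichment only, and 72 h replicate 2, at 15576, lay close to the 0 h libraries.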

How the results depend on the processing

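In all alternatives of the limma fit, 0 members were called, as in the fit reported. The alternatives were other scales, genes listed in at least 1 library, fold enrichment, no variance trend, promoter windows of 500 and 2000 bp and each library left out, and the smallest adjusted p of a member was 0.106 over these fits for the comparisons with 0 h, and 0.0711 for 96 h against 48 h without 96 h replicate 1, a fit that called 149 of all genes where 0 were called with all libraries. Over all genes, 47 and 43 were called at 48 h without 96 h replicate 2 and replicate 1, and 110 over the 3 times together without 96 h replicate 2, against 6 and 3 with all libraries. With the replicate block, 0 members were called in each comparison, with smallest adjusted p-values of 0.229, 0.349, 0.938 and 0.318. Same-numbered libraries share only a number: the correlations of their deviations ran from −0.09 to 0.12. Counts of members whose groups do not overlap moved with the scale. Divided by list length, the higher ranked counts became 14, 11 and 18 at 48, 72 and 96 h and the lower ranked count at 72 h 16. Among promoters alone, 15 ranked higher and 12 lower at 48 h, and 15 higher at 96 h. By fold enrichment, 16 ranked higher and 8 lower at 48 h, and 11 lower at 96 h. Leaving out 1 library, which sets 2 against 1, gave 15 to 24 higher (background 23.9% to 31.7%) and 27 to 36 lower (36.0% to 40.6%) at 48 h, 11 to 16 (24.5% to 30.7%) and 37 to 48 (39.3% to 42.2%) at 72 h, and 12 to 31 (23.5% to 34.3%) and 22 to 44 (29.3% to 38.4%) at 96 h, since fewer libraries need to be apart. The count of 76 members in all 8 lists ranged from 69 to 78. By fold enrichment the median percentile of the members was 88.2, with all genes at 87.4, and the NRF1 share around the summit was 4.55%. Lists with no read counts limit precision in a way that cannot be quantified.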
